A study of Komagataella phaffii with 18 samples.

Results

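The acetate response of Komagataella phaffii was compared between wild type and strains that hold a single mating type. The quantity described is an interaction: the change from YPD to acetate medium in wild type, minus the mean of that change in the a-type strain and in the α-type strain, both on the log2 scale. It rests on all 18 libraries of the series and asks which part of the response differs in a culture that can hold both mating types. Of 5341 features in the files, 4783 had enough counts to be tested. All strains are derivatives of CBS2612. The groups were wild type, dic1-2Δ(a), the heterothallic a-type or a strain, and dic1-2Δ(α), the heterothallic α-type or α strain. Each was sampled while growing exponentially in YPD, a rich glucose medium, and again once the cultures had spent 24 h in acetate medium, with 3 libraries of polyadenylated RNA in every group. Each mating type is represented by 1 strain, so mating type and anything else that sets these strains apart cannot be told apart. The same holds for the medium and the time in culture.

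K. phaffii, known as Pichia pastoris in biotechnology, is a methylotrophic yeast that is haploid for most of its life. Its wild type is homothallic: a cell can change its mating type by inverting a chromosome segment that carries both mating-type loci, so a wild-type culture can hold a and α cells side by side. Poor media such as acetate medium induce mating and, in the diploids that result, sporulation. In Saccharomyces cerevisiae, where the pathway was worked out, each cell type secretes a peptide pheromone that binds a receptor on the other type, and a MAP kinase cascade then switches on genes for arrest, shape change and cell fusion. A heterothallic strain has no partner of the opposite type in its own culture.

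YPD libraries held 234044 to 309362 estimated counts each, and acetate libraries 637339 to 765524. Nothing in the labels says if the 3 libraries of a group had cultures of their own, so the p-values rest on a spread that could be technical. The biological coefficient of variation was 35.7% among YPD libraries and 12.9% among acetate libraries, and the joint fit used 25% for both. The scaling factors of the acetate wild-type libraries, 0.776 to 0.872, lay below those of the single-type acetate libraries, 1.02 to 1.08. The files do not pair the feature IDs with gene names, and 0 of the 5341 IDs matched the reference gene table given for another strain. Features are therefore given by ID, with no function, and the mating-type genes could not be located to check the strain labels. CPM is the count scaled to a common library size by TMM, given as a level within a feature and not compared between features per length.

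The acetate response of wild type differed from the single-type mean for 391 features, which is 8.17% of those tested (edgeR's quasi-likelihood test with Benjamini-Hochberg adjustment, adjusted p under 0.05). The difference was positive for 281 features, 5.87% of those tested, and negative for 110, 2.3%. Larger differences were mostly positive: 136 positive and 24 negative features differed by more than 2 on the log2 scale, and 31 positive features and 1 negative feature by more than 4. Among features with at least 3 counts in every group and no near-identical copy, positive differences ran from 0.77 to 7.60 and negative ones from -0.88 to -3.65. The median difference over all tested features was -0.05. With upper-quartile scaling this median was -0.23, and 54.6% of the calls were positive in place of 71.9%. Without acetate wild-type replicate 2 the count was 248 in place of 391.

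**Figure D1:**
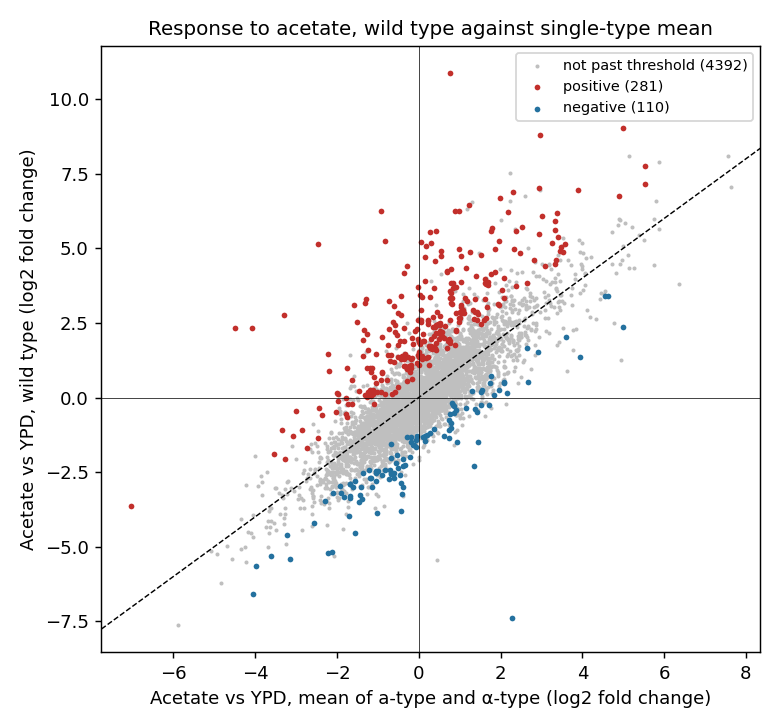
Log2 fold change from YPD to acetate in wild type (vertical) against the mean log2 fold change of the a-type and α-type strains (horizontal), 1 point per tested feature, with features past the threshold in red (281 positive) and blue (110 negative). The dashed line marks equal responses, and 31 red points but 1 blue point lie more than 4 away from it in the vertical direction. The blue one is PP7435_Chr4-0072, and the red ones include its possible copy PP7435_Chr4-0003. Neither call held once their counts were summed. The red ones also include PP7435_Chr1-1164, with 0 counts in YPD wild type.

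The positive features took a larger part of the acetate wild-type transcriptome. They held 24.1% to 25.4% of the counts in the 3 acetate wild-type libraries, 10.3% to 10.9% in the α strain in acetate and 7.27% to 7.61% in the a strain in acetate, against 6.76% to 8.33% in the 9 YPD libraries. In bulk RNA, fewer cells of a type and less RNA per cell cannot be told apart. The negative features held 1.34% to 1.63% in acetate wild type and 3.55% to 4.11% in the single-type acetate libraries. In YPD they held 5.22%, 5.44% and 7.01% in wild-type replicates 1, 2 and 3 and 4.35% to 5.03% in the single-type libraries. These groups did not overlap, but wild-type replicates 1 and 2 lay close to the single-type range. These features were chosen on the same libraries, so the shares describe them and test nothing. The median log2 response of the positive features was 2.44 for wild type, 0.14 for the a strain and 0.32 for the α strain. For the negative features these medians were -2.05, -0.18 and -0.38. Over all tested features the medians were 0.03, -0.01 and 0.05.

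Positive differences took 3 shapes by the sign of the fitted responses, which were not each tested. For 167 of the 281 features (59.4%) both wild type and the single-type mean had a positive response, larger in wild type. For 95 (33.8%) the response was positive in wild type and negative in the single-type mean, and for 19 (6.76%) both were negative, less so in wild type. Among all tested features with a positive estimate, called or not, the shares were 53.7%, 18.9% and 27.5%. The median responses of the 95 features were 1.37 in wild type, -0.76 in the a strain and -0.68 in the α strain.

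PP7435_Chr1-0699, with a coding length of 1611 bases, is the feature with the lowest p among those that rose in wild type where the single-type mean fell. In YPD it had 663, 431 and 735 CPM in wild type, 791, 364 and 557 CPM in the a strain and 499, 441 and 432 CPM in the α strain. In acetate it had 2491, 3579.5 and 3108 CPM in wild type, 23.2, 26.7 and 30.1 CPM in the a strain and 31.3, 30.9 and 39.2 CPM in the α strain. The strains overlapped in YPD, and in acetate all wild-type libraries stood above and all single-type libraries below every YPD library. The difference in response was 6.41 on the log2 scale (SE 0.32, edgeR adjusted p = 2.86e-12).

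PP7435_Chr4-0221 and PP7435_Chr2-0626 had the largest positive differences among features with counts in every group. PP7435_Chr4-0221 (594 bases) had 20.5, 27.4 and 27.6 CPM in the YPD libraries of wild type and 746, 1038 and 886 CPM in its acetate libraries. In acetate it had 4.35, 4.22 and 20.05 CPM in the a strain and 14.2, 12.3 and 7.01 CPM in the α strain, where the YPD means had been 61.5 ± 26.1 and 54.2 ± 17.6 CPM (SD, n = 3). Its response thus had opposite signs, 5.14 in wild type against -2.67 in the a strain and -2.26 in the α strain, and the difference was 7.60 (SE 0.57, edgeR adjusted p = 4.75e-10).

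PP7435_Chr2-0626 (1548 bases) had 1189.9, 1731 and 1369 CPM in acetate wild type and 7.03 to 28.6 CPM in the 6 single-type acetate libraries. Its YPD levels were low in every strain, from 4.60 to 43.9 CPM over the 9 libraries. The difference was 7.17 (SE 0.61, edgeR adjusted p = 2.66e-09).

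PP7435_Chr4-0067 (597 bases) had the lowest p among features that rose more in wild type. Its YPD libraries lay between 64.1 and 122 CPM in all strains. In acetate it reached 5180.4, 6469.6 and 5353 CPM in wild type, 112, 108 and 105 CPM in the a strain and 174, 337 and 143 CPM in the α strain. Each wild-type library was thus above every single-type library, and α-type replicate 2 was the highest of these 6. The difference was 5.38 (SE 0.36, edgeR adjusted p = 2.77e-10). Of the features that fell less in wild type, PP7435_Chr4-0656 (774 bases) had the lowest p. Its level changed from 1999 ± 961 to 159.9 ± 54.7 CPM in wild type, from 2393 ± 1193 to 19.1 ± 2.38 CPM in the a strain and from 2609 ± 849 to 18.8 ± 9.12 CPM in the α strain (SD, n = 3). Its acetate levels were 100.1, 172 and 207 CPM in wild type, above all single-type libraries, the highest of which had 25.6 CPM. The difference was 3.37 (SE 0.51, edgeR adjusted p = 5.84e-05).

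**Figure D2:**
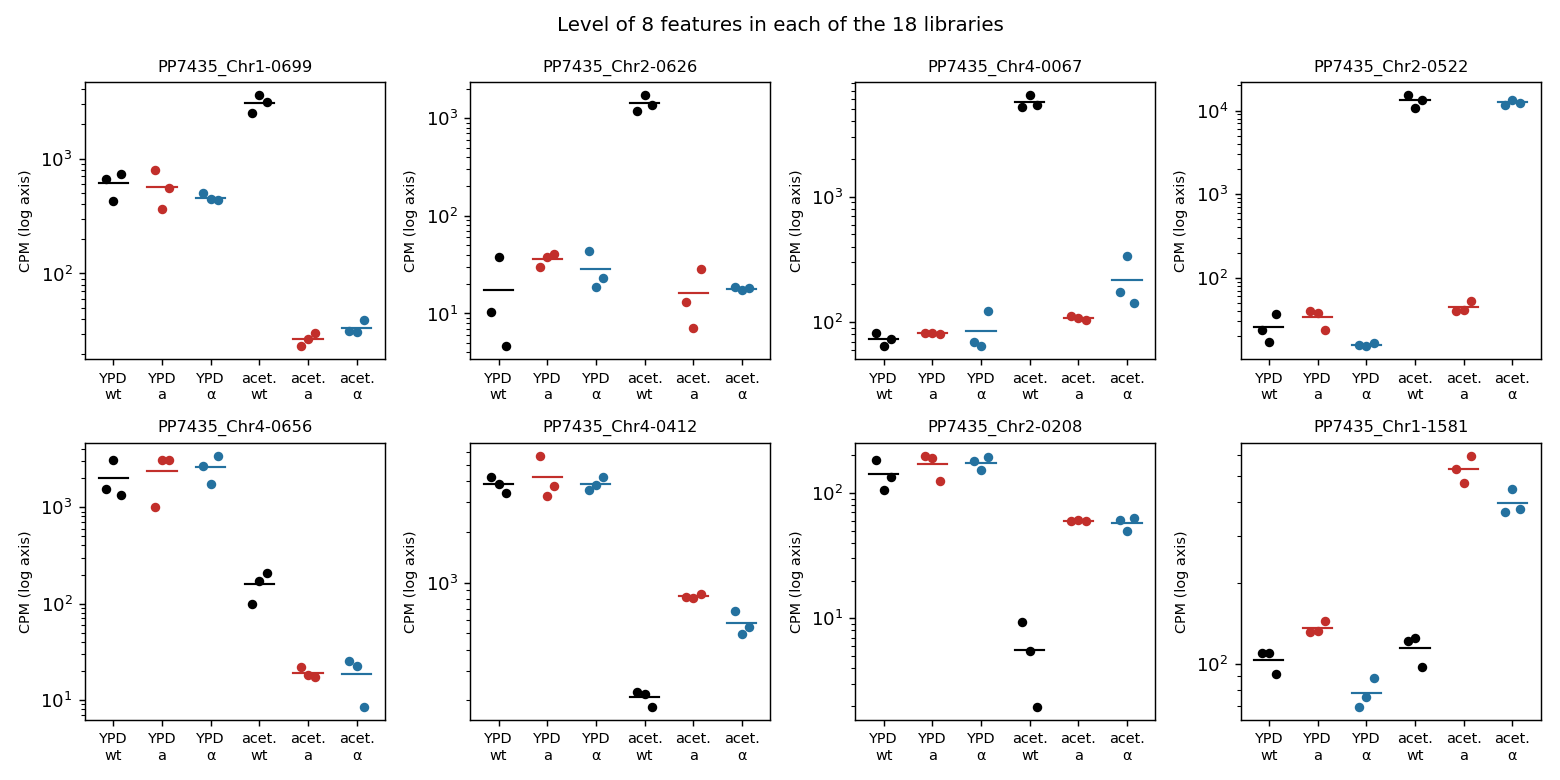
Level in CPM (log axis) of 8 features in each of the 18 libraries, with wild type in black, a-type in red and α-type in blue; each point is a library and each bar a group mean of 3. In acetate the wild-type libraries stand apart from both single-type strains in 7 of the 8 panels, and for PP7435_Chr2-0522 they overlap with α-type.

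The negative differences were smaller and also took 3 shapes. For 65 of the 110 features (59.1%) both responses were negative, more so in wild type. For 27 (24.5%) the response was negative in wild type and positive in the single-type mean, and for 18 (16.4%) both were positive, less so in wild type. Among all tested features with a negative estimate these shares were 51.5%, 17.6% and 30.9%.

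PP7435_Chr2-0208 (312 bases) had the lowest p among features that fell more in wild type. Its wild-type libraries held 181, 106 and 133 CPM in YPD, then 9.38, 5.44 and 1.96 CPM in acetate. The single-type strains had 49.4 to 63.1 CPM in acetate, so the groups did not overlap, after YPD means of 171 ± 40.1 CPM in the a strain and 174 ± 20.7 CPM in the α strain (SD, n = 3). The difference was -2.98 (SE 0.52, edgeR adjusted p = 9.05e-05).

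Among the negative features with the highest levels, PP7435_Chr4-0412 (1092 bases) went from 3854 ± 410.5 to 208 ± 23.1 CPM in wild type, from 4245 ± 1274 to 829.6 ± 25.9 CPM in the a strain and from 3879 ± 337 to 575 ± 94.3 CPM in the α strain (SD, n = 3). It fell in all 3 strains and farther in wild type, with a difference of -1.65 (SE 0.26, edgeR adjusted p = 0.000104). PP7435_Chr4-0289 (879 bases) ended at 26.6, 43.5 and 37.2 CPM in acetate wild type and between 101 and 159 CPM in the single-type acetate libraries. Its YPD levels were scattered, from 654 to 4623 CPM, and the difference was -2.53 (SE 0.59, edgeR adjusted p = 0.00657).

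PP7435_Chr1-1581 (1575 bases) had the lowest p among features with a positive response that was smaller in wild type. It had 109, 109 and 91.9 CPM in the YPD libraries of wild type and 122, 125 and 97.8 CPM in its acetate libraries. Its a-type levels rose from 137 ± 7.33 to 532 ± 62.5 CPM and its α-type levels from 77.8 ± 10.2 to 398 ± 44.2 CPM (SD, n = 3). The wild-type groups overlapped between media, and the single-type groups did not. The difference was -2.01 (SE 0.29, edgeR adjusted p = 3.78e-05).

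PP7435_Chr1-0324 (1755 bases) averaged 529.6 ± 254 CPM in wild type in YPD and 373 ± 46.4 CPM in wild type in acetate, while a-type went from 414 ± 90.02 to 1043 ± 272 CPM and α-type from 368 ± 103 to 1052 ± 147 CPM (SD, n = 3). All 6 single-type acetate libraries were above the wild-type ones. The difference was -1.92 (SE 0.35, edgeR adjusted p = 0.000695), and it was -1.42 with the third YPD wild-type library left out (823 CPM, both others 383).

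The largest negative differences with counts in every group rested on few reads. PP7435_Chr2-0063 (429 bases) had 23.9, 17.1 and 147 CPM in the YPD libraries of wild type and 14.1, 9.07 and 11.7 CPM in its acetate libraries. The single-type strains had 21.0 to 40.6 CPM in acetate. The difference was -3.65 (SE 0.81, edgeR adjusted p = 0.00305), and without YPD wild-type replicate 3, the library with 147 CPM, it was -2.11 and did not pass (edgeR adjusted p = 0.0697). PP7435_Chr4-0578 (312 bases) had 6 counts in acetate wild type and 12 in the a strain in YPD, and its difference was -3.39 (SE 1.04, edgeR adjusted p = 0.0233). It did not pass without YPD wild-type replicate 1 or 3, nor without any of the acetate wild-type replicates, with edgeR adjusted p-values of 0.05 to 0.1.

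The interaction is the wild-type difference in acetate minus the wild-type difference in YPD, and both terms were estimated in the same fit. The test of the acetate term alone, wild type minus the single-type mean in acetate, gave 717 features or 15% of those tested, with 502 (10.5%) higher and 215 (4.5%) lower in wild type. With upper-quartile scaling the balance turned, to 379 higher and 485 lower. With the 9 acetate libraries fitted alone the test gave 1544 features, and without acetate wild-type replicate 2 it gave 458. The test of the YPD term alone gave 21 features or 0.439%, with 20 (0.418%) higher and 1 (0.0209%) lower in wild type. It gave 2 when the 9 YPD libraries were fitted alone, and 2 to 72 with a library left out. Among the 281 positive features the median acetate term was 1.66 and the median YPD term -0.22, and among the 110 negative features the medians were -1.06 and 0.52. The acetate term was the larger in absolute size for 252 positive features (89.7%) and 79 negative ones (71.8%), against 56% of all tested features.

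**Figure D3:**
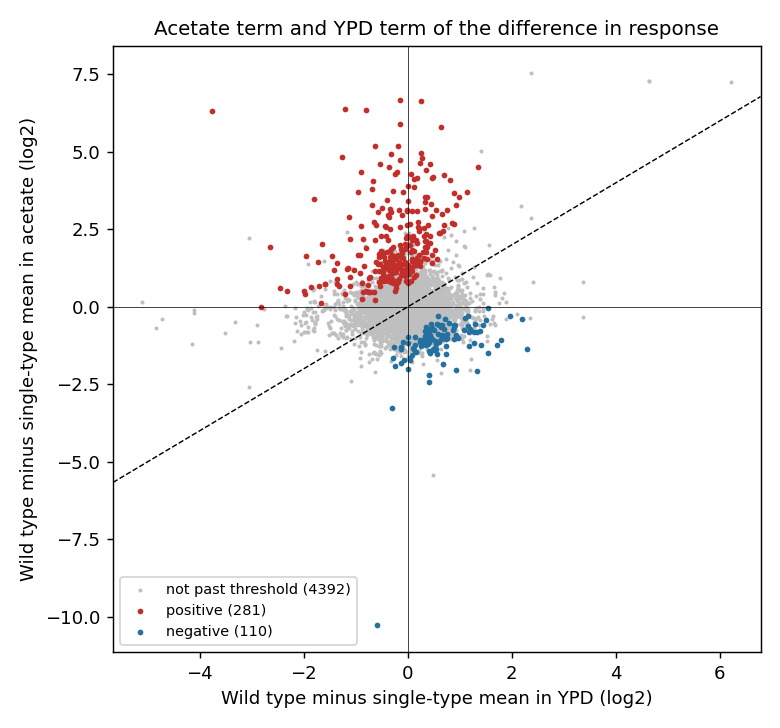
Wild type minus the single-type mean in acetate (vertical) against the same difference in YPD (horizontal), both in log2 units, 1 point per tested feature, with the features past the threshold of the interaction in red and blue. The interaction is the vertical distance from the dashed line of equal differences; most red points lie high above a YPD difference near 0, while blue points lie lower and more often to the right of 0.

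At the level of libraries, the 3 acetate wild-type libraries lay above all 6 single-type acetate libraries for 270 of the 281 positive features, as they did for 16.4% of all tested features. They lay below all of them for 92 of the 110 negative features, against 12.1% of all tested features. In YPD the wild-type libraries lay below all single-type ones for 16 positive features, against 1.38% of all tested, and above them for 13 negative features, against 1.48%. These counts come from the libraries that also made the calls and describe where the difference sits.

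For 29 positive and 31 negative features the YPD term was the larger one in absolute size. PP7435_Chr3-1468 (1194 bases) had 54.7, 44.5 and 32.2 CPM in YPD wild type and 64.1 to 94.5 CPM in the YPD single-type libraries, without overlap. In acetate it had 170.4, 194 and 160.4 CPM in wild type and 98.5 to 115 CPM in the others, again without overlap and in the opposite direction. Its terms were of similar size, 0.78 in acetate (edgeR adjusted p = 0.00617) and -0.89 in YPD, where it did not pass (edgeR adjusted p = 0.167), and the difference was 1.66 (SE 0.33, edgeR adjusted p = 0.00134). PP7435_Chr3-1413 (570 bases) had 7.23 ± 2.86 CPM in YPD wild type, 44.4 ± 25.2 CPM in the a strain and 32.5 ± 4.48 CPM in the α strain (SD, n = 3). Its acetate levels were 112 ± 29.7, 94.8 ± 17.2 and 66.6 ± 8.45 CPM. Wild type and a-type overlapped there, and the α-type libraries, at most 74.1 CPM, lay below both. The difference was 2.83 (SE 0.66, edgeR adjusted p = 0.00186), which missed the threshold in limma-voom with a spread of its own for each medium (2.56, adjusted p = 0.0545).

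In the other direction, PP7435_Chr1-1216 (2982 bases) had 318, 359 and 799.7 CPM in YPD wild type, 112, 152 and 128 CPM in the a strain in YPD and 135, 324 and 214 CPM in the α strain in YPD. The acetate libraries of the 3 strains overlapped, between 59.4 and 127 CPM. Its YPD term was 1.51, its acetate term -0.42 and the difference -1.94 (SE 0.42, edgeR adjusted p = 0.00341). Without YPD wild-type replicate 3, the library with 799.7 CPM, the difference was -1.37.

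A difference of equal size in both media gives no interaction, however large it is. A feature with a group at 0 counts can also miss the threshold, whatever its difference. PP7435_Chr4-1158, PP7435_Chr4-1169 and PP7435_Chr1-0080 were chosen after their values were seen, among 8 features with an acetate term over 3 in absolute size and no call in the interaction. PP7435_Chr4-1158 had 1545 ± 121 CPM in acetate wild type, 390.2 ± 21.7 CPM in the α strain in acetate and 0 counts in every a-type library, and in YPD it had 121 ± 77.6, 9.89 ± 8.03 and 0 CPM (SD, n = 3). Wild type was the highest strain in both media. With the a strain at 0 counts in both media, the missing call does not show that the differences were of equal size. PP7435_Chr4-1169 was also highest in wild type in both media, with an acetate term of 3.24, a YPD term of 2.18 and an interaction of 1.06 (edgeR adjusted p = 0.0652). PP7435_Chr1-0080 had 322 ± 13.3 CPM in acetate wild type and 0.937 ± 1.62 and 2.29 ± 1.66 CPM in the single-type strains (SD, n = 3). Its summed counts in wild type, a-type and α-type were 3, 2 and 0 in YPD and 550, 2 and 5 in acetate. With the α strain at 0 counts in YPD, the test of the interaction did not pass (edgeR adjusted p = 0.995).

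For 8 of the 391 calls, 1 or more of the 6 groups had under 3 counts in all. PP7435_Chr1-1164 (534 bases) had 0 counts in YPD wild type, 3 in the a strain in YPD and 3 in the α strain in YPD. In acetate it had 392, 537 and 512 CPM in wild type, 2.90, 2.81 and 1.43 CPM in the a strain and 5.70, 27.2 and 5.61 CPM in the α strain, so wild type stood far above both. Its wild-type level was at least 127-fold higher in acetate than in YPD, where the floor is 3 counts summed over the 3 libraries. The ratio was 0.769 in the a strain (95% exact counting interval 0.15 to 4.95) and 3.99 in the α strain (1.24 to 20.4). It passed (edgeR adjusted p = 0.00115), but its fitted difference depends on the group at 0 and is no bound, and without YPD a-type replicate 1 it did not pass (edgeR adjusted p = 1).

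PP7435_Chr3-2359 (2304 bases) had 1 count in YPD wild type and 200.1, 172 and 164 CPM in acetate wild type, a ratio of 145 by summed counts and library sizes (95% exact counting interval 25.8 to 5730). In acetate the single-type strains had 28.0 to 63.2 CPM, below all wild-type libraries, after 9.60 ± 4.04 and 8.84 ± 6.30 CPM in YPD (SD, n = 3; edgeR adjusted p = 0.00215). Its fitted difference of 4.59 (SE 1.44) rests on that 1 count, and without YPD wild-type replicate 1, which held it, the fitted value was 7.16 and is no bound. In the other direction, PP7435_Chr1-0002 (1497 bases) had 12, 4 and 2 counts in YPD wild type, a-type and α-type and reached 38.2 ± 17.3, 51.5 ± 7.08 and 50.5 ± 7.31 CPM in acetate (SD, n = 3). The acetate groups overlapped, and its call (edgeR adjusted p = 0.0262) was lost on leaving out acetate wild-type replicate 2 or 3, YPD wild-type replicate 1 or 3, or YPD α-type replicate 1, with edgeR adjusted p-values of 0.0513 to 0.122.

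The single-type mean stands for strains that may themselves differ. A test of the difference in response between a-type and α-type gave 7 features, 0.146% of those tested, with 2 (0.0418%) positive and 5 (0.105%) negative. The median absolute difference between these strains was 0.33 among positive features, 0.25 among negative features and 0.33 over all tested features. It exceeded 2 for 11 positive features, for 0 negative features and for 57 of the 4783 tested. In all 11 the a-type response was the lower one, though only some of these differences passed, and the direction was not counted over the 57. Over all tested features, 107 negative and 50 positive differences between these strains had an unadjusted edgeR p under 0.05. The acetate wild-type mean lay above both single-type means for all 11, as for 279 of the 281 positive features and 1808 of the 4783 tested. Among the 11 are PP7435_Chr4-0003, a possible copy described below, PP7435_Chr1-1164 and PP7435_Chr3-0686. Their lowest groups had 0, 0 and 2 counts. PP7435_Chr3-0686 had 8.09 CPM in the a strain and 6.13 CPM in the α strain in acetate, after 21.4 and 2.36 CPM in YPD. Its direction thus came from the YPD levels.

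PP7435_Chr2-0522 and PP7435_Chr2-0521 have consecutive IDs and were the positive features with the highest level. PP7435_Chr2-0522 (1197 bases) had 15368, 10842 and 13468 CPM in acetate wild type, 11648, 13308 and 12457 CPM in the α strain in acetate and 40.6, 40.8 and 53.0 CPM in the a strain in acetate. Wild type and α-type overlapped, and a-type stayed near its YPD level of 33.7 ± 8.79 CPM (SD, n = 3). The call, a difference of 4.02 (SE 0.38, edgeR adjusted p = 3.27e-08), thus came from a mean of unequal responses of 0.40 in the a strain and 9.60 in the α strain, between which the wild-type response of 9.02 lay. The wild-type level was 2.11 times the arithmetic mean of the a-type and α-type levels and 1.06 times the α-type level.

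PP7435_Chr2-0521 (474 bases) had 11418, 13676 and 13053 CPM in acetate wild type, 4694, 5058 and 4592 CPM in the α strain and 94.2, 59.03 and 71.6 CPM in the a strain. Here the 3 strains did not overlap, and wild type was 2.66 times the α-type level. The difference was 4.06 (SE 0.40, edgeR adjusted p = 1.11e-07), while a-type minus α-type was -6.00 (edgeR adjusted p = 2.15e-08). Against the a strain alone the wild-type difference in response was 7.06 (edgeR adjusted p = 3.08e-10). Against the α strain alone it was 1.06 (SE 0.46) and did not pass (edgeR adjusted p = 0.234). For PP7435_Chr3-1699, PP7435_Chr3-0319 and PP7435_Chr3-1710, chosen after their values were seen as the others of these 11 whose a-type and α-type responses differed past the threshold, wild type was 1.28, 3.50 and 2.66 times the α-type level in acetate. Their differences from the single-type mean were 1.85, 3.82 and 2.36. For PP7435_Chr3-1699 the wild-type response of 6.74 lay between those of the a strain (2.91) and the α strain (6.86). Its call thus also came from a mean of unequal responses.

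**Figure D4:**
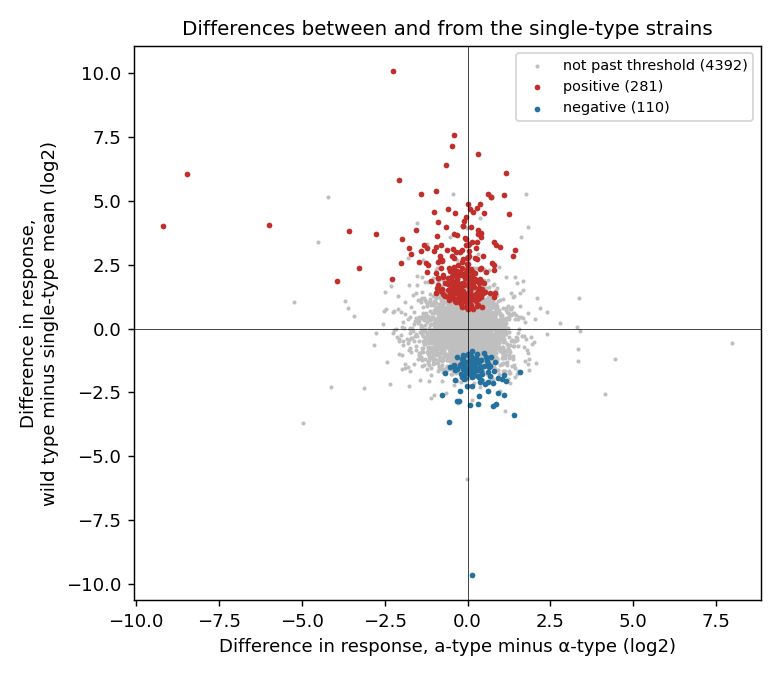
Difference in acetate response between wild type and the single-type mean (vertical) against the difference between a-type and α-type (horizontal), in log2 units, 1 point per tested feature. The 11 positive features with a horizontal difference over 2 in absolute size all lie to the left, where the α-type response is the larger, and no negative feature lies that far out. Only some of these 11 horizontal differences passed.

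Some chromosome 4 features run in mirrored ID order and were treated as possible copies, between which the split of reads is uncertain. In 3 of the 4 pairs tested both members had equal lengths and equal summed counts in every group. In the other pair, PP7435_Chr4-0003 (3138 bases) and PP7435_Chr4-0072 (3135 bases) passed in opposite directions, at 6.05 (edgeR adjusted p = 0.00351) and -9.66 (edgeR adjusted p = 1.46e-07), and each had 0 counts in an acetate group. With their counts summed, acetate levels were 274 ± 36.4 CPM in wild type, 519 ± 70.3 CPM in the a strain and 273.9 ± 29.4 CPM in the α strain (SD, n = 3). The summed difference was -0.05 (SE 0.31, edgeR adjusted p = 0.959), so neither call held for the pair.

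Features past the threshold were spread over the 4 chromosomes at similar rates: 7.91% of those tested on chromosome 1, 7.75% on chromosome 2, 8.86% on chromosome 3 and 8.32% on chromosome 4, and 0 of the 3 mitochondrial features tested. Positive features more often had a neighbour by ID that was also positive. Of 244 positive features with a tested neighbour whose ID number differs by 1, 70 (28.7%) had a positive one, against 8.53% of the 4034 other features with such a neighbour. For negative features the shares were 11.7% and 3.83%. There were 37 pairs of adjacent positive IDs and 6 of adjacent negative ones. Positions were not used here, and reads shared by overlapping neighbours were not tested. Features with coding lengths up to 600 bases made up 11.7% of positive, 11.8% of negative and 14.6% of all tested features.

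The interval of the difference was wider for features with a low level. The median half-width of the 95% interval of the difference was 1.59 on the log2 scale for the 1135 features with a mean under 30 CPM, of which 2.11% passed. It was 0.59 for the 191 features with a mean of at least 1000 CPM, of which 20.9% passed. PP7435_Chr3-0845 (180 bases) was the most precisely measured feature among those that fell by at least 3 on average over the strains without passing. Its level changed from 2003 ± 280.5 to 242 ± 29.1 CPM in wild type, from 1626 ± 239.8 to 204 ± 24.7 CPM in the a strain and from 2058 ± 622 to 213 ± 36.3 CPM in the α strain (SD, n = 3), a difference of 0.09 with a 95% interval of -0.49 to 0.67. The rising counterpart, PP7435_Chr4-0387 (1800 bases), reached 1309 ± 60.7 CPM in wild type, 3816 ± 303 CPM in the a strain and 3756 ± 316 CPM in the α strain in acetate, without overlap. Its YPD means were 63.2 ± 18.1, 90.7 ± 11.8 and 107 ± 23.7 CPM, and the difference of -0.92 missed the threshold narrowly (SE 0.29, edgeR adjusted p = 0.0501). It passed in 5 of 28 alternatives, among them upper-quartile scaling (-1.10, edgeR adjusted p = 0.0148) and DESeq2 (adjusted p = 0.0342), so its call depends on the processing.

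**Figure D5:**
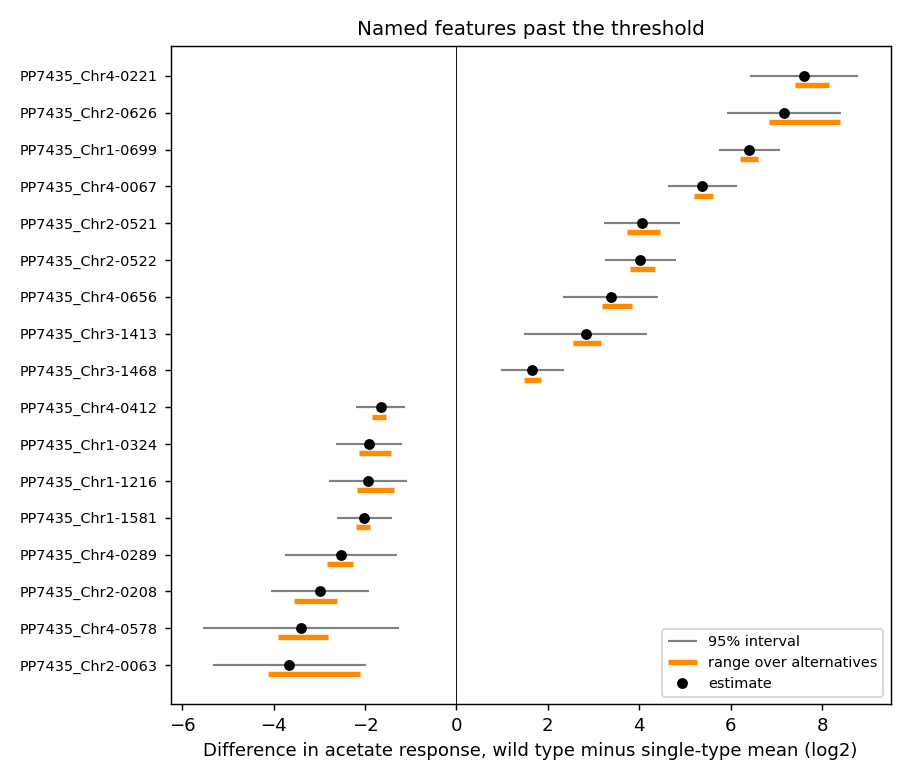
Difference in acetate response, wild type minus single-type mean (log2), for the 17 named features past the threshold with at least 3 counts in every group. Points are estimates, grey lines 95% intervals and orange lines the range over 28 alternatives; no range crosses 0, and the ranges are widest for PP7435_Chr2-0063 and PP7435_Chr2-0626.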

How the data were processed

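Polyadenylated RNA of 18 libraries was analysed from the tables of estimated counts that the authors deposited, 1 per library, in kallisto's format per the file headers. Tools listed in the submitters' processing notes, with no role, are kallisto, DESeq2, SAMtools, TopHat2, Trim Galore 0.4.2 and FastQC 0.11.2. No source used here gives a genome build. The 9 tables of normalized values (54 value columns), of which 3 are identical, were not used.

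Estimated counts were rounded, filtered (filterByExpr), scaled by TMM and fitted with 1 mean per group in edgeR 4.0.16 (R 4.3.3). Contrasts were tested by quasi-likelihood, with p-values adjusted over all 4783 features by the Benjamini-Hochberg method and a threshold of 0.05. Standard errors are Wald errors of that fit, and intervals are 95%. Alternatives used limma 3.58.1 and DESeq2 1.42.0. The tests were run on simulated counts, drawn independently for each library with the depths and spread of these data. Such counts cannot show if the libraries of a group had separate cultures or if the scaling is right. Intervals on counts and floors of 3 counts cover counting error only. Pairs of replicates differed by more than sampling noise (chi-square per degree of freedom 2.15 to 16.2).

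Named features follow a rule: of features past the threshold whose highest group mean reached 10 CPM, those with the largest difference (acetate libraries not overlapping), the highest level, a group under 3 counts, a YPD term above the acetate term, the lowest p in each shape, or the largest difference between a-type and α-type, and the most precise shared responses that did not pass. The comparison, the rule and the lists were chosen with earlier results of these data known. Gene lists and mating-type markers were set but not used, since the IDs have no names.

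Whether replicate numbers mark shared cultures is not stated. Deviations from the group mean correlated at -0.101 to 0.0933 between YPD and acetate libraries of the same strain and number, and at -0.112 to 0.094 between different numbers (3030 features), so the numbers were not taken to pair libraries.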

Additional observations from a re-analysis of the deposited data

Results flagged for a closer look

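Tests of the difference itself set the acetate response of wild type apart from the single-type mean for 391 features, and that of the a strain apart from that of the α strain for 7. Among the named features, the positive log2 differences between wild type and the single-type mean were 7.60 for PP7435_Chr4-0221, 7.17 for PP7435_Chr2-0626, 6.41 for PP7435_Chr1-0699, 5.38 for PP7435_Chr4-0067, 4.06 for PP7435_Chr2-0521, 4.02 for PP7435_Chr2-0522, 3.37 for PP7435_Chr4-0656, 2.83 for PP7435_Chr3-1413 and 1.66 for PP7435_Chr3-1468. The fitted 10.09 of PP7435_Chr1-1164 rests on a group with 0 counts and is no bound, and the fitted 4.59 of PP7435_Chr3-2359 rests on a group with 1 count (7.16 without the library that held it). The negative differences were -3.65 for PP7435_Chr2-0063, -3.39 for PP7435_Chr4-0578, -2.98 for PP7435_Chr2-0208, -2.59 for PP7435_Chr1-0002, -2.53 for PP7435_Chr4-0289, -2.01 for PP7435_Chr1-1581, -1.94 for PP7435_Chr1-1216, -1.92 for PP7435_Chr1-0324 and -1.65 for PP7435_Chr4-0412. Between a-type and α-type the differences were -9.21 for PP7435_Chr2-0522 and -6.0 for PP7435_Chr2-0521.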

How the results depend on the processing

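The number of features past the threshold was 391 and stayed within 1.5 times of that with RLE scaling (392), upper-quartile scaling (390), DESeq2 (489), limma-voom with weights per medium (336), no filter (380), a filter of 10 CPM in 3 libraries, which kept 5186 features (387), and mirrored chromosome 4 pairs summed (389). Of the 391, 385 also passed with RLE scaling and 323 with upper-quartile scaling. The 390 calls of upper-quartile scaling were 213 positive and 177 negative, so a similar total did not mean the same features. Tested against a log2 difference of 1 the number was 107, with 99 positive and 8 negative, and with 1 library left out it ran from 248 to 483. With the replicate block it was 358 (number 1 to 3 as a term) and 269 (strain and number as cultures), and PP7435_Chr1-0002 lost its call with cultures (adjusted p = 0.0516). The acetate term gave 717 features, 1377 with limma-voom, 1544 with the medium fitted alone, 181 against a log2 difference of 1 and 458 to 870 with a library left out; 43.9% were higher in wild type with upper-quartile scaling, against 70% with TMM, 57.5% with limma-voom and 55.9% with the medium fitted alone. The YPD term gave 21 features, 2 with limma-voom, with the medium fitted alone and against a log2 difference of 1, 4 with the replicate block and 2 to 72 with a library left out.

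Of the 20 named features past the threshold, 10 passed in all 28 alternatives and 10 did not pass in at least 1. All kept their direction. The alternatives include the test against a log2 difference of 1, which asks for more than a difference from 0 and is not a change of processing. PP7435_Chr3-0845, which did not pass, turned to -0.10 with upper-quartile scaling, and ran from -0.003986 to 0.2088 with a library left out, the lowest without YPD α-type replicate 3. The cause of these changes was not tested. At a mean under 30 CPM the median half-width of the 95% interval was 1.59, and differences smaller than their own half-width could not be told from 0.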

Other observations

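Among the 30 features past the threshold with a difference over 4, the mirrored pair left out, α-type replicate 2 was the highest of the 6 single-type acetate libraries for 11 (36.7%), where it was the highest for 17.9% of all tested features. The other 5 libraries were highest for 2 to 5 of these 30 features each. Among the 280 positive features past the threshold outside the pair, α-type replicate 2 was highest for 27.1%. In that set α-type replicate 1 was highest for 22.5%, against 14.6% of all tested features. Without α-type replicate 2 in acetate, 326 features passed the interaction test, of which 317 were among the 391.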
